A study of Homo sapiens with 9 samples.

Results

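*IGLL1* and a group of genes best known from the B lineage were examined upon *PHF6* knockdown in ALL-SIL, an established human cell line from a T cell acute lymphoblastic leukemia. The genes were *IGLL1*, *IGLL5*, *VPREB1*, *VPREB3*, *FAM30A*, *CD79A*, *CD79B*, *PAX5* and *EBF1*, and the probe A_33_P3395675 was added, which the array assigns to ENST00000390323, an immunoglobulin lambda transcript. *IGLL1*, *FAM30A* and A_33_P3395675 were chosen by their lower values with the *PHF6* siRNAs in these same arrays, so their differences from control are given below as a description without a test. The other genes were chosen by their place in the B lineage with these results known. They are 9 of the 19722 genes matched on the array, and with the added probe they came to 16 of its 57176 probes. Of these, 11 probes, of 6 genes and the lambda transcript, reached the filter of 3 arrays well above background and were tested among 33585 probes.

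By electroporation, ALL-SIL cells received either control siRNA or one of the *PHF6* siRNAs named siRNA1 and siRNA2, with 3 samples per group, and the RNA of each sample was hybridized to its own one-colour Agilent array. The labels describe the samples of a group as independent biological replicates of this one cell line, and give collection at 96 h, with 72 h in a free-text description. The commercial product behind each of the names siRNA1 and siRNA2 is not stated in the sources used here. Replicates 1 and 2 of every group were on slide 1 and replicate 3 on slide 2. Values are given on the generalized log2 scale of VSN, a normalization that acts like log2 for bright probes and compresses differences of dim ones. Group differences were fitted with limma, with Benjamini-Hochberg adjustment over all tested probes, once without and once with the replicate number as a block, because arrays with the same number deviated together.

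The targeted gene was lower in every siRNA array. The *PHF6* probe A_23_P171385 read 11.07, 11.17 and 10.86 on the control arrays, 9.39, 9.69 and 9.12 with siRNA1, and 9.20, 9.28 and 9.14 with siRNA2. The mean of both siRNAs was 3.31-fold lower than control (log2 difference -1.73, SE 0.14, adjusted p = 0.00248 from limma). All 16 T-lineage markers listed were tested. The mean of their probes lay between 12.28 and 12.72 on the control arrays and between 12.16 and 12.51 on the siRNA arrays. The mean over the probes of 19 B cell surface and cytoplasmic markers lay between 5.40 and 5.59 on the control arrays and between 5.54 and 5.68 on the siRNA arrays. *CD74* and *HLA-DRA*, which mature B cells express strongly, were well above background on 0 of the 9 arrays.

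In developing B cells, a newly made immunoglobulin heavy chain is tested for its fitness before a light chain is available. The proteins of *IGLL1* (also called lambda 5) and *VPREB1* together form the surrogate light chain, which pairs with the heavy chain in the pre-B cell receptor, and the proteins of *CD79A* and *CD79B* carry its signal into the cell. *EBF1*, *PAX5* and the E2A proteins encoded by *TCF3* are transcription factors that switch on this set of genes early in the B lineage.

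Because *IGLL1* and *FAM30A* had the largest differences among the genes and *VPREB1* and *CD79A* are the partners of *IGLL1* in the receptor, the 250 bases before the start of these 4 genes are shown. They are RefSeq sequences on the GRCh38.p14 build, printed 5′ to 3′ on the strand of the gene. Capitals mark matches to the EBF-type letters CCCNNGGG and to the E-box letters CAGNTG, which were searched on both strands. The windows are chr22:23580291-23580540 on the minus strand for *IGLL1*, chr14:105917729-105917978 on the plus strand for *FAM30A*, chr22:22244536-22244785 on the plus strand for *VPREB1* and chr19:41877029-41877278 on the plus strand for *CD79A*.
IGLL1: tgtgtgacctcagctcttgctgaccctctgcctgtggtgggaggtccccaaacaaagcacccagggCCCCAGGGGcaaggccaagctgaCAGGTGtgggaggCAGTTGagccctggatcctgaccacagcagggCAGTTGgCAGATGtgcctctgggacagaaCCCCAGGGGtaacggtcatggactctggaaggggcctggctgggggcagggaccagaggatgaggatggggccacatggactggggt
FAM30A: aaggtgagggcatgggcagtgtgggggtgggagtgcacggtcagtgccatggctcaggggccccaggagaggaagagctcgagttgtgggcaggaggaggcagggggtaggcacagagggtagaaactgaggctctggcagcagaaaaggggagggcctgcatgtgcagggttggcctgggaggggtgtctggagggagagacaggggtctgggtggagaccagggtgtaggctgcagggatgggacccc
VPREB1: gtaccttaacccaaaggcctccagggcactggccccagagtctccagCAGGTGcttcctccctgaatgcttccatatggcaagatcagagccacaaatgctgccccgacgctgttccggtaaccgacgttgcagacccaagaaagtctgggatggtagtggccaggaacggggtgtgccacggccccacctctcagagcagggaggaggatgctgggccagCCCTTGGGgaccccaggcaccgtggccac
CD79A: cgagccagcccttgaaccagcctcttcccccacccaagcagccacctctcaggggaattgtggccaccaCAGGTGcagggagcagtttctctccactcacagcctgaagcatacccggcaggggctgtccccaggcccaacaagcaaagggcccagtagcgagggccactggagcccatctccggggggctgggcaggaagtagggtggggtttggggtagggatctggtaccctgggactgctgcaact

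The *IGLL1* window held 4 EBF-type matches, which overlap in pairs and begin 184, 183, 87 and 86 bases before the start, and 4 E-box matches. The *VPREB1* window held 1 of each, the *CD79A* window 1 E-box match and the *FAM30A* window 0 of either. Of 35116 promoter windows of the same length 17.1% held at least 1 EBF-type match and 42.5% at least 1 E-box match. A match describes the letters of the window and is not evidence of binding. The table used matched 7 of the 9 genes.

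*IGLL1* was read by a pair of probes, both well above background on all 9 arrays. A_23_P120812 read 12.04, 12.01 and 11.79 on the control arrays of replicates 1, 2 and 3, 10.22, 10.52 and 9.97 with siRNA1, and 10.10, 9.88 and 9.82 with siRNA2. Every siRNA array was below every control array, with a gap of 1.27 between the nearest arrays of the groups. The mean of both siRNAs was 3.63-fold lower than control (log2 difference -1.86, SE 0.14). In the intensities as scanned, before any normalization, the control arrays ranged from 3833 to 4242.5 and the siRNA arrays from 941 to 1309.5.

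The other *IGLL1* probe, A_24_P239076, read 11.70, 11.62 and 11.44 in controls, 10.66, 10.67 and 10.01 with siRNA1, and 10.55, 10.51 and 9.96 with siRNA2. Its groups did not overlap either, but the mean difference was smaller, at -1.19 (SE 0.19), or 2.28-fold. The probes of the gene thus had the same direction in 6 of 6 siRNA arrays but not the same size. The log2 value of A_23_P120812 minus that of A_24_P239076 was between 0.34 and 0.39 on the control arrays and between -0.64 and -0.04 on the siRNA arrays, so that their ratio differed between the groups. Against the control of the same replicate number, A_23_P120812 differed by -1.49 to -2.13 and A_24_P239076 by -0.95 to -1.48. The mean of these differences for A_23_P120812 was -1.88 and -1.81 in replicates 1 and 2, on slide 1, and -1.89 in replicate 3, on slide 2.

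The lambda probe A_33_P3395675 read 11.99, 11.93 and 11.67 in controls, 10.46, 10.62 and 10.05 with siRNA1, and 10.35, 10.17 and 9.90 with siRNA2, a difference of -1.60 (SE 0.16), or 3.04-fold. Its values followed those of *IGLL1*. After each probe was set to its own mean over the 9 arrays, the root-mean-square difference between A_33_P3395675 and the *IGLL1* probe A_23_P120812 was 0.14, smaller than the 0.36 between the *IGLL1* probes themselves. These points share their 9 arrays, so this is a description.

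A further probe, A_24_P605563, is assigned to the same lambda transcript and was looked up after the values of A_33_P3395675 were seen. It was dim, at 5.33, 4.87 and 5.42 in controls, 5.36 and 5.30 in siRNA1 replicates 2 and 3, and 5.10, 5.04 and 5.43 with siRNA2. The spot of siRNA1 replicate 1 carried an outlier flag and was left out, and the fit used the other 8 arrays. Its difference from control was 0.05 (SE 0.16, adjusted p = 0.961 from limma without and 0.851 with the replicate block). A_24_P605563 thus did not drop with the siRNAs as A_33_P3395675 did. At its dim signal, a change in the transcript could have been missed. With the flagged spot kept, that array read 9.45, and the difference was 0.74. *IGLL1* and the immunoglobulin lambda constant genes are related in sequence, the array files used here do not give the probe sequences, and how much of the A_33_P3395675 signal came from *IGLL1* transcripts was not tested.

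**Figure D1:**
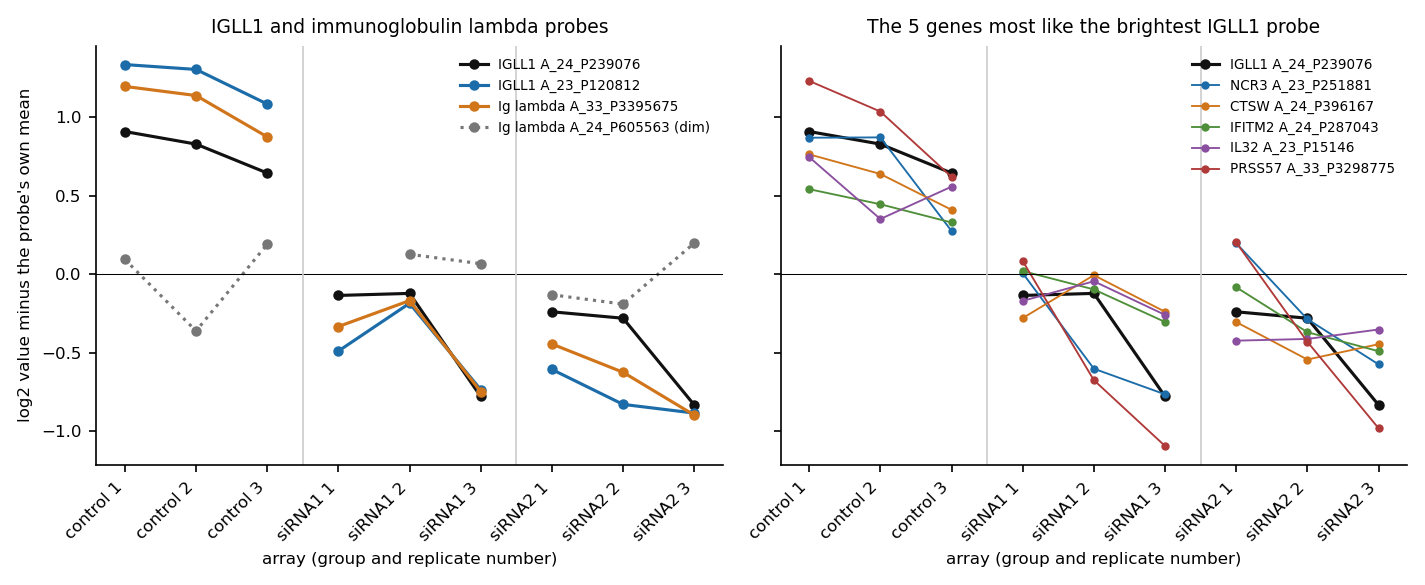
Log2 value minus the probe's own mean over its arrays (y axis) for each array (x axis, grouped as control siRNA, *PHF6* siRNA1 and *PHF6* siRNA2). Left, the *IGLL1* probes and A_33_P3395675 are above 0 on the 3 control arrays and below 0 on the 6 siRNA arrays, while the dim lambda probe A_24_P605563 (1 array left out) has no such step; right, the 5 genes most like the brightest *IGLL1* probe.

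*IGLL5*, a relative of *IGLL1* in the lambda locus, was not well above background on any array. Its probe A_33_P3379039 ranged from 4.16 to 4.51 in controls and from 4.23 to 4.72 with the siRNAs, and it was not tested.

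*FAM30A*, a long non-coding RNA gene beside the immunoglobulin heavy chain genes, also had a pair of probes. A_23_P140190 read 7.46, 6.69 and 6.20 in controls, 5.60, 5.34 and 4.96 with siRNA1, and 5.69, 4.61 and 4.95 with siRNA2. The groups did not overlap, and the difference was -1.59 (SE 0.29), or 3.01-fold. The dimmer probe A_24_P95723 read 6.21, 5.34 and 5.01 in controls, 4.83, 4.02 and 4.39 with siRNA1, and 4.58, 4.37 and 4.37 with siRNA2, a difference of -1.09 (SE 0.25). Over the other normalizations the difference of A_24_P95723 ran from -2.24 with 75th percentile scaling to -0.57 with normexp and quantile normalization, and that of A_23_P140190 from -2.28 to -0.97. A_24_P95723 was well above background on all 3 control arrays but on 1 array of each siRNA, so that it passed the filter through the control group. Against the own control both *FAM30A* probes were lower in 6 of 6 siRNA arrays. The mean log2 differences in replicates 1, 2 and 3 were -1.81, -1.71 and -1.24 for A_23_P140190 and -1.50, -1.14 and -0.63 for A_24_P95723.

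**Figure D2:**
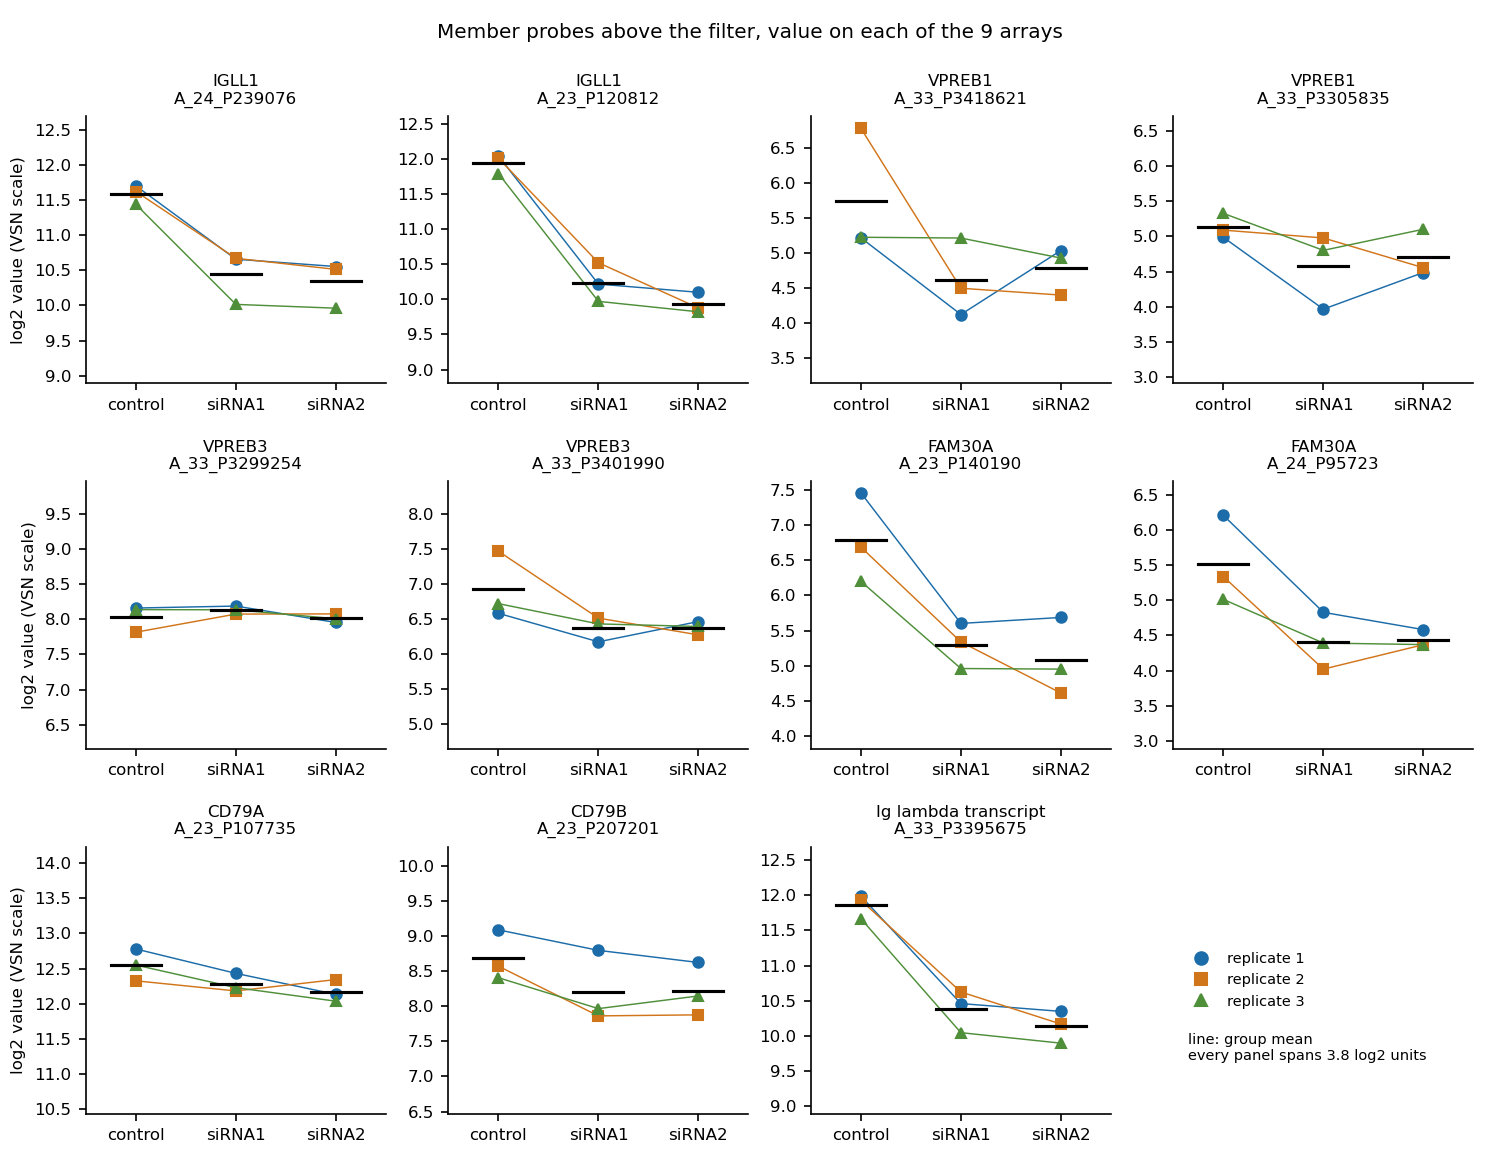
Log2 value on the VSN scale (y axis) of the 11 tested probes in the control siRNA, *PHF6* siRNA1 and *PHF6* siRNA2 groups (x axis), with a symbol for each array, thin lines joining arrays of the same replicate number and black bars for the means of 3 arrays. All panels span the same number of log2 units; both *IGLL1* probes, both *FAM30A* probes and A_33_P3395675 drop in every replicate, whereas *VPREB3* A_33_P3299254 stays near 8.

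*VPREB1*, whose protein joins that of *IGLL1* in the surrogate light chain, was close to background. Probe A_33_P3418621 read 5.22, 6.77 and 5.22 in controls, 4.12, 4.50 and 5.21 with siRNA1, and 5.04, 4.40 and 4.93 with siRNA2. The control of replicate 2 stood apart above the other controls, and the highest siRNA array lay just below the lowest control array. The difference of -1.04 (SE 0.35) did not pass the test (adjusted p = 0.644 from limma without and 0.118 with the replicate block), and it was -0.52 without the control array of replicate 2. Probe A_33_P3305835 read 4.99, 5.09 and 5.33 in controls, 3.96, 4.98 and 4.80 with siRNA1, and 4.49, 4.55 and 5.10 with siRNA2. Its groups overlapped, and the difference was -0.49 (SE 0.23). Both probes were well above background on all 3 controls. With the siRNAs A_33_P3418621 was so on 3 arrays and A_33_P3305835 on 2, so that the latter passed the filter through the controls, and no test of it is given.

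*VPREB3* encodes a protein that binds immunoglobulin heavy chains in early B cells, and its probes disagreed. The brighter probe A_33_P3299254 read 8.16, 7.82 and 8.14 in controls, 8.19, 8.07 and 8.14 with siRNA1, and 7.95, 8.08 and 8.01 with siRNA2. It was lower than the own control in 3 of 6 siRNA arrays, with a difference of 0.03 (SE 0.12, adjusted p = 0.966 without and 0.868 with the block). Probe A_33_P3401990 read 6.58, 7.46 and 6.72 in controls, 6.18, 6.51 and 6.43 with siRNA1, and 6.46, 6.28 and 6.39 with siRNA2. It was lower than the own control in 6 of 6 arrays, with a difference of -0.55 (SE 0.19), but this did not pass the test (adjusted p = 0.644 without and 0.0832 with the block). The control of replicate 2 was again the highest array, and without it the difference was -0.27.

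*CD79A*, which encodes the Ig alpha chain of the receptor, was well above background on all 9 arrays. A_23_P107735 read 12.78, 12.33 and 12.55 in controls, 12.43, 12.18 and 12.23 with siRNA1, and 12.13, 12.34 and 12.04 with siRNA2. The groups overlapped, and the difference of -0.33 (SE 0.14) did not pass the test (adjusted p = 0.654 without and 0.133 with the block). *CD79B*, which encodes the Ig beta chain, read 9.09, 8.57 and 8.41 in controls, 8.79, 7.86 and 7.97 with siRNA1, and 8.62, 7.88 and 8.15 with siRNA2 on A_23_P207201. It was lower than the own control in 6 of 6 arrays, by 0.26 to 0.71, although the groups overlapped. Its difference of -0.48 (SE 0.24) gave an adjusted p of 0.725 without the block and fell below the threshold with it (adjusted p = 0.0416). With the block kept, *CD79B* was not called after leaving out any one replicate number, nor with VSN on the processed signal (adjusted p = 0.0888) or scaling to the 75th percentile (0.0932). It was called with normexp and quantile normalization (0.0267) and in the deposited table (0.0358).

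The 2-sided exact permutation test of 6 siRNA against 3 control arrays, with 84 splits and no adjustment, is given for *VPREB1* A_33_P3418621 and the probes of *VPREB3*, *CD79A* and *CD79B*. It was also run on the other probes of the group. These were chosen by their values, passed the filter through the controls or did not reach it, and their results are not given. The splits of the test take no account of the replicate number that arrays share, unlike the fit with the block. The test gave 0.0119 for *VPREB3* A_33_P3401990, the smallest p it allows, 0.0238 for *VPREB1* A_33_P3418621, 0.0476 for *CD79A*, 0.131 for *CD79B* and 0.726 for *VPREB3* A_33_P3299254.

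The transcription factors of the group were not measurable. Of the 9 arrays, 0 had any of the 3 *EBF1* probes well above background, and these probes read between 3.73 and 4.44 in controls and between 3.96 and 4.58 with the siRNAs. The *PAX5* probe A_23_P71624 was well above background on 0 control arrays and on 1 array of each siRNA, at means of 4.42 in controls, 4.81 with siRNA1 and 4.52 with siRNA2. At this signal, a difference in *PAX5* or *EBF1* was not detectable. The next probes above the filter, *VPREB1* A_33_P3305835 and *FAM30A* A_24_P95723, were well above background on 5 arrays.

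**Figure D3:**
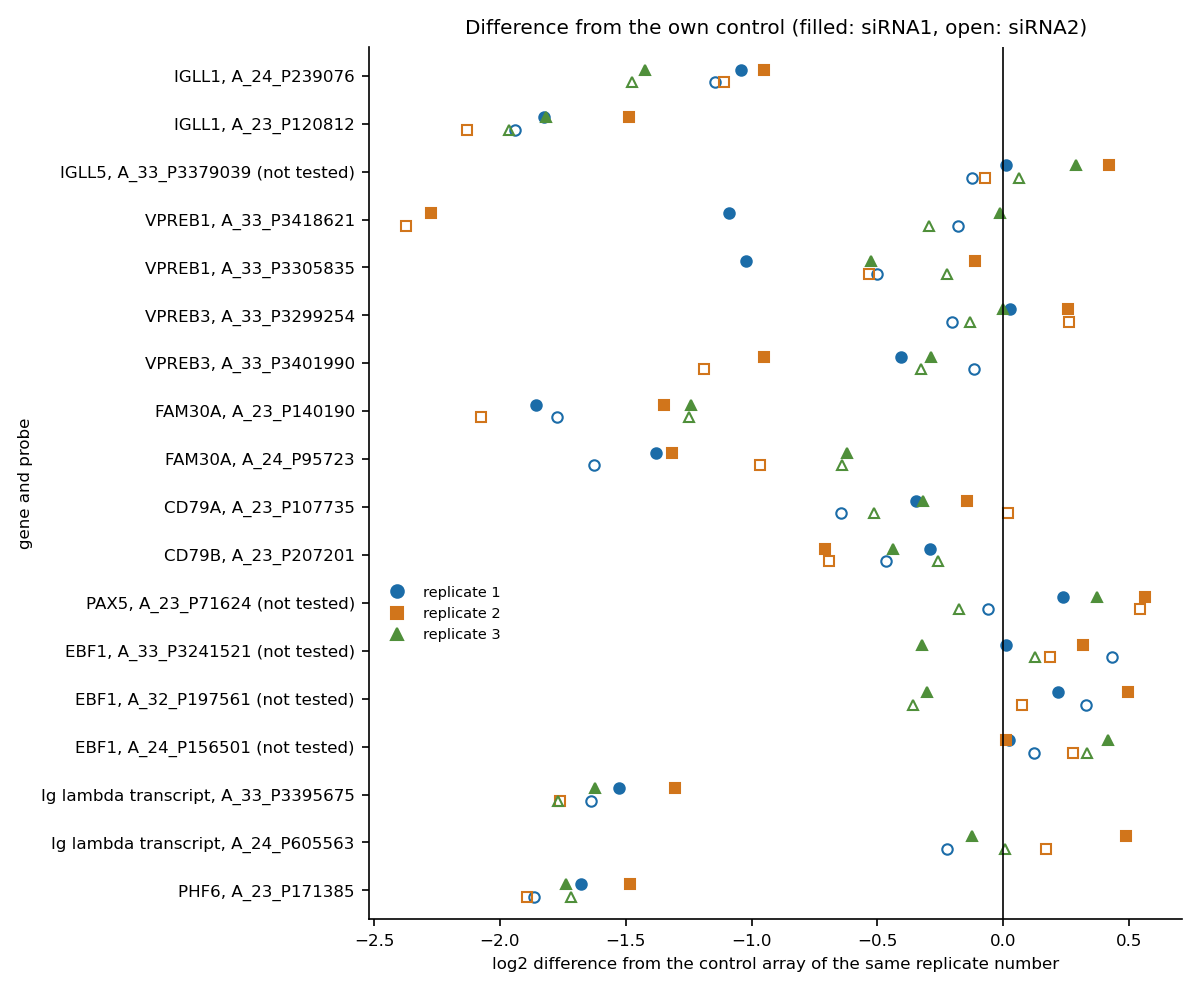
Log2 difference of each siRNA array from the control with its own replicate number (x axis) for the 16 probes, the lambda probe A_24_P605563 and *PHF6* (y axis); filled symbols are *PHF6* siRNA1, open symbols *PHF6* siRNA2, and 0 is no difference. The *IGLL1*, *FAM30A*, A_33_P3395675 and *PHF6* probes lie left of 0 in 6 of 6 arrays. Of the 5 probes that were not tested, *EBF1* A_24_P156501 lies right of 0 in 6 of 6 arrays, *EBF1* A_33_P3241521 in 5 and the others in 4.

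Of the 11 tested probes, 5 were chosen by their lower values in this contrast and 1 more passed the filter through the controls, so the counts over the 11 restate that choice and are given only as a description. Of the 11, 9 were lower than the own control in 6 of 6 siRNA arrays, against 10.8% of all tested probes, and 7 had all siRNA arrays below all control arrays, against 2.06%. For both siRNAs against control, the counts under limma's threshold were 2 without the block, against 0.00893% of all probes, and 6 with it, all of them lower, against 2.74% in either direction and 0.881% lower. For siRNA1 the counts were 1 without and 5 with the block, against 0.00893% and 0.947%, and for siRNA2 they were 2 and 5, against 0.0119% and 1.65%. Of the other 5 probes, 0 were called without the block and 1, *CD79B*, with it, against the same background for both siRNAs.

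The comparison of siRNA2 with siRNA1 was not used to choose any probe. Limma called 0 of the 11 probes, with or without the replicate block, against 0.0387% of all probes with the block. Without the block 0 of the 11 had an unadjusted p under 0.05, against 2.51% of all probes, and with it 2 did, against 9.67%, *IGLL1* A_23_P120812 and A_33_P3395675. *IGLL1* A_23_P120812 was 0.30 lower with siRNA2 (SE 0.17, log2 difference with the block between -0.57 and -0.04 at 95% confidence), with an adjusted p of 1 without and 0.481 with the block. For *IGLL1* A_24_P239076 the difference was -0.11, with an interval of -0.36 to 0.15, and for *FAM30A* A_23_P140190 it was -0.22, with an interval of -0.60 to 0.17. *PHF6* itself was lower with siRNA2 than with siRNA1 by a log2 difference of -0.19, with an interval of -0.43 to 0.05.

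The level of several genes also depended on the replicate number. With the groups in the model, limma called differences among the replicate numbers for 5 of the 11 probes, against 35.5% of all probes, which is close to that background. They were *CD79B* (adjusted p = 0.00326), *FAM30A* A_23_P140190 (0.00924) and A_24_P95723 (0.0292), *IGLL1* A_24_P239076 (0.0135) and A_33_P3395675 (0.0253). The mean over the 3 arrays of a replicate was 10.97, 10.93 and 10.47 for *IGLL1* A_24_P239076, so that replicate 3, on slide 2, was the lowest. For *FAM30A* A_23_P140190 it was 6.25, 5.54 and 5.37, and for *CD79B* 8.83, 8.10 and 8.17, with replicate 1 the highest in both. *IGLL1* A_23_P120812 did not pass this test (adjusted p = 0.142). Replicate numbers 1 and 2 shared a slide, and the slide of replicate 3 cannot be told apart from the replicate itself.

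The genes whose values were most like those of *IGLL1* were ranked by the root-mean-square difference from its brightest probe over all arrays, A_24_P239076, after each was set to its own mean, among 13228 genes well above background on all 9 arrays. The closest 5 were *NCR3* (0.27), which encodes an activating receptor of natural killer cells, *CTSW* (0.27), a protease of cytotoxic lymphocytes, *IFITM2* (0.29), an interferon-induced membrane protein, *IL32* (0.30), a cytokine, and *PRSS57* (0.31), a serine protease of myeloid granules. The median over all ranked genes was 0.62, and a gene with the same value on every array would score 0.61. The values of *PRSS57* were 14.74, 14.54 and 14.12 in controls, 13.59, 12.83 and 12.41 with siRNA1, and 13.71, 13.08 and 12.53 with siRNA2, a difference of -1.44. *NCR3* had a difference of -1.01, *CTSW* of -0.91, *IL32* of -0.83 and *IFITM2* of -0.66. All 5 were lower than the own control in 6 of 6 arrays, against 10.8% of all tested probes. The ranking was by likeness to a probe chosen as lower with the siRNAs. These drops therefore follow from the ranking and are only a description. By the same measure *PHF6* came next, at rank 6, and *IGLL1* A_23_P120812 would have ranked 23 (0.36). *PHF6* is the target of the siRNAs, so its rank is a description only. A_33_P3395675 lay closer than any named gene, at 0.22, while *FAM30A* A_23_P140190 was at 0.41, *CD79A* at 0.47, *CD79B* at 0.48 and *VPREB1* A_33_P3418621 at 0.66.

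The genes of the other B-lineage lists did not fall as a group. These lists were written by function, and some of their genes, such as *IL7R*, also act in T cells. Their counts therefore do not describe genes particular to the B lineage. In the lists of transcription factors, receptor signalling genes, surface and cytoplasmic markers, immunoglobulin chain genes, early lymphoid progenitor genes and MHC class II genes, 61 genes were tested, of which 29 were lower and 32 higher with the siRNAs. Their median log2 difference was 0.01, against -0.04 over all 14676 genes tested. Limma called 0 of the 61 without the block, against 0.00681% of all genes, with 9 at an unadjusted p under 0.05, or 14.8% against 6.38%. With the block it called 5, of which 1 was lower and 4 were higher, or 8.20% against 2.36% of all genes. Among the higher ones, *STAP1* and *FCRL2* may have passed the filter through the siRNA arrays. With the block kept, 3 of these 5 calls were held without replicate 3, 1 without replicate 1 and 0 without replicate 2.

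Of 18 transcription factors tested, 10 were lower and 8 higher, with a median difference of -0.03. *BACH2*, a repressor that acts in early and mature B cells, was called with the block, as higher by 0.58 (SE 0.21, adjusted p = 0.646 without and 0.031 with the block). It read 9.15, 9.05 and 8.61 in controls, 9.67, 9.42 and 9.24 with siRNA1, and 9.81, 9.91 and 9.04 with siRNA2. *BACH2* was not called with VSN on the processed signal (adjusted p = 0.0606) or 75th percentile scaling (0.0611), nor with the block after leaving out replicate 1 (0.216), replicate 2 (0.113) or replicate 3 (0.0524). *TCF3*, which encodes the E2A proteins, read 14.04 in controls and differed by -0.03.

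Of 13 receptor signalling genes tested, 8 were lower and 5 higher, with a median of -0.08 and no call under either fit, although 1 of them had an unadjusted p under 0.05 without the block. Among those measured on all 9 arrays were the phosphatase gene *PTPN6* (-0.41) and the kinase gene *BTK* (0.23). *SYK*, *BLNK* and *BLK*, which act directly below the receptor in B cells, were among 8 genes of this list that were above background on 0 arrays.

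Among 14 surface and cytoplasmic markers tested, 6 were lower and 8 higher, with a median of 0.08. *STAP1*, an adaptor gene, was higher by 0.74 (SE 0.12, adjusted p = 0.265 without and 0.0143 with the block) and *FCRL2*, an Fc receptor-like gene, by 0.53 (SE 0.22, adjusted p = 0.654 and 0.031). Both were dim, at control means of 4.82 and 4.66, and well above background on 7 arrays. The lowest arrays of each were controls, so both may have passed the filter through the siRNA arrays, where they were higher. Their calls are therefore given as a description. With the block kept, *STAP1* was called in 2 of the 4 other normalizations, with differences of 0.32 to 1.30, and *FCRL2* in 0 of the 4, with differences of 0.19 to 1.16. *STAP1* was not called with the block after leaving out any one replicate, and *FCRL2* was called only without replicate 3 (0.0488). *JCHAIN*, the one immunoglobulin chain gene with a matched probe, differed by -0.02.

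Of 5 early lymphoid progenitor genes tested, 1 was lower and 4 were higher, with a median of 0.41. *IL7R*, the receptor for a cytokine that early T cells need, read 6.94, 8.02 and 7.51 in controls, 7.52, 8.99 and 9.14 with siRNA1, and 8.32, 9.35 and 9.24 with siRNA2. It was higher than the own control in all 6 arrays, and its difference of 1.27 (SE 0.38) passed the test with the block (adjusted p = 0.00649) but not without it (0.644), nor without replicate 2 with the block kept (0.101). Of 10 MHC class II genes, 3 were lower and 7 higher by the mean of both siRNAs. Of the 7, *HLA-DPA1* (0.46, SE 0.60) was lower than the own control in 5 of 6 siRNA arrays. *HLA-DMB*, whose product helps to load peptides onto MHC class II, was lower by a log2 difference of -0.74 (SE 0.25, adjusted p = 0.644 without and 0.00912 with the block). The *HLA-DMB* call with the block was lost without replicate 1 (0.0674) or replicate 2 (0.101).

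Markers of other lineages were measured on the same arrays. Of the 16 T-lineage markers 12 were lower and 4 higher, with a median of -0.06, and with the block 2 were called, both lower, or 12.5% against 2.36% of all genes. These were *CD7*, an early T cell surface marker (-0.76, adjusted p = 0.586 without and 0.0124 with the block), and *PTCRA*, which encodes the pre-T cell receptor alpha chain, the T cell counterpart of a surrogate chain (-0.73, adjusted p = 0.644 and 0.00837). Neither was called with the block after replicate 1 or replicate 2 was left out. Of 6 myeloid markers tested 4 were lower and of 4 erythroid markers 3 were lower, with 0 calls under either fit and 0 at an unadjusted p under 0.05 without the block. The differences were -0.23 for *CSF3R*, -0.13 for *CD14* and -0.05 for *ITGAM* among the myeloid markers, and 0.17 for *ALAS2* and -0.14 for *HBG1* among the erythroid markers. In bulk RNA, fewer cells of a type and less RNA per cell cannot be told apart.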

How the data were processed

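RNA of 9 ALL-SIL samples, 3 with control siRNA and 3 with each *PHF6* siRNA, was measured on one-colour arrays, and groups and replicate numbers were taken from the sample titles. The authors deposited the intensity of every spot from Agilent Feature Extraction (10.5.1.1 in the array headers, 9.1 in the submitters' processing notes), unnormalized, with flags of 0 or 1. They also deposited a log2 table normalized with VSN, which was used as an alternative. The design assumed the mean intensity, and the median was used because the files used here hold the median. The VSN model (7 iterations, quantile 0.9) was fitted by code written for this work, outlier spots were left out, repeated spots averaged, and probes well above background on at least 3 of 9 arrays tested. No spot was saturated. Own values correlated with the deposited table at 0.994 to 0.999 across probes.

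Groups were fitted together in R 4.3.3 with limma 3.58.1 (statmod 1.5.0), with a threshold of 0.05 on Benjamini-Hochberg adjusted p. Deviations of same-numbered arrays from their group means correlated at 0.311 to 0.745 and those of other pairs between groups at -0.569 to 0.134, so the blocked fit is given beside the other. Symbols were matched through a RefSeq table, for 25729 of 57176 probes and 19722 genes, with the brightest probe standing for a gene in lists. Arrays were annotated on another build, so no gene positions are given for probes. The members and lists were chosen with earlier results of these data known. The named genes were the members, *PHF6*, the listed genes called with or without the block (otherwise at most 3 with the largest difference among those well above background on all 9 arrays), and the 5 genes most like *IGLL1*. *CD74*, *HLA-DRA*, *TCF3*, *SYK*, *BLNK* and *BLK* were added as background, and *HLA-DPA1* to qualify a count. A few genes that this rule names are not reported here. The scripts were tested on simulated data. Depth has no counterpart on arrays, where their number limits the precision.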

Additional observations from a re-analysis of the deposited data

How the results depend on the processing

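The counts over the 11 probes include those chosen on these values. For both siRNAs against control, 2 of the 11 probes were called without the replicate block, 6 with it and 3 with the slide as a block. For siRNA1, where 1 was called, the count was 0 with VSN on the processed signal or with only the arrays of the groups compared, 2 with 75th percentile scaling, with normexp and quantile normalization, with only probes above background on all 9 arrays or with an intensity trend, 3 with the slide as a block and 5 with the replicate block. For siRNA2, where 2 were called, it was 1 with VSN on the processed signal and 5 with the replicate block. Among replicate numbers, where 5 were called, it was 2 with 75th percentile scaling and 3 with no filter or with the filter on all 9 arrays. Of the other B-lineage genes, meaning those of the lists above, 0 were called without and 5 with the replicate block. Leaving out 1 array gave 1 to 2 calls for both siRNAs, 0 to 1 for siRNA1, 0 to 2 for siRNA2, 3 to 6 among replicate numbers and 0 for the other B-lineage genes. Leaving out 1 replicate number with the replicate block gave 4, 2 and 5 calls without replicates 1, 2 and 3 for both siRNAs, 3, 2 and 5 for siRNA1, 4, 2 and 5 for siRNA2 and 1, 0 and 3 for the other B-lineage genes. The comparison of siRNA2 with siRNA1 gave 0 calls in every setting run. The difference of *VPREB3* A_33_P3299254 changed sign with VSN on the processed signal (-0.0036), without the control of replicate 2 (-0.076) and without replicate number 2 with the block (-0.077), and leaving out 1 array or replicate moved it between -0.077 and 0.096. The other 10 probes kept their direction in all alternatives. The difference of *IGLL1* ranged from -1.94 to -1.77 for A_23_P120812 and from -1.27 to -1.06 for A_24_P239076, that of A_33_P3395675 from -1.70 to -1.51, that of *FAM30A* A_23_P140190 from -2.28 to -0.97, that of *FAM30A* A_24_P95723 from -2.24 to -0.57 and that of *VPREB1* A_33_P3418621 from -2.04 to -0.39. Where a count moved, the cause was not tested, apart from the fewer arrays left in each fit that omits some. Signal over background limits *VPREB1*, *FAM30A* A_24_P95723, *STAP1* and *FCRL2*, and *EBF1*, *PAX5* and *IGLL5* were too dim to test.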
